A study of Mus musculus with 4 samples.

Results

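Saa3, C4b, C3 and Serpinb1a are an acute phase serum amyloid gene, a pair of complement genes and the gene of an intracellular protease inhibitor. They were followed in SVEC cells, an established line of mouse endothelial cells, the cells that line vessels. Their spots were taken by gene symbol. The genes were selected on their log2 ratios on these same arrays, so the ratios below describe the genes and are given with no test. Of the 4 genes, 3 were measured, on 8 of 24344 named spots and among 11138 genes: Saa3 with 2 oligonucleotides and 4 spots, and C4b and Serpinb1a with 1 oligonucleotide and 2 spots each. No named spot carried C3, which was not analysed here.

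RNA came from cultures kept with lipopolysaccharide (LPS), the endotoxin of Gram-negative bacteria, for 24 h or 4 h, and from control cultures. All RNA was amplified. For 3 arrays the labels give 50 ng/ml of LPS; for the other, at 4 h with LPS in Cy3, they give no dose. At each time LPS-treated and control RNA were hybridised together on 2 arrays, one carrying LPS in Cy5 and the other, the reversed array, in Cy3. Since the labels say nothing of separate cultures, each time was treated as 1 pair of RNA samples read on 2 arrays with exchanged dyes. The SD beside a value is thus technical and holds no variation between cultures. SVEC is a single line, and nothing in the labels says whether control RNA was shared between the times.

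Each value is a log2 ratio, so 1 stands for a 2-fold difference. The direction, LPS over control, is likely only, and its basis is that the labels put LPS in Cy5 and in channel 2 on the unreversed arrays. Before any turning, the correlation within a pair was below 0 (r = -0.042 over 32448 spots at 24 h and r = -0.23 at 4 h), so the reversed arrays were taken as not yet turned; this has no bearing on which of LPS and control is on top. The opposite convention would turn every sign below. After the reversed array had been turned in sign, the arrays of a pair correlated across genes with r = 0.10 at 24 h and r = 0.48 at 4 h, over genes that are no independent replicates. The table gives no intensities, so the level of a transcript, and whether a spot was above background, are not known. In ratios of bulk RNA, a change in the number of expressing cells and a change in RNA per cell cannot be told apart.

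As background, acute phase proteins are secreted proteins whose production rises in infection and injury. In the liver they are induced by interleukin 6 and interleukin 1 through the transcription factors Stat3, NF-kB and C/EBP. Serum amyloid A3 is the member of the mouse serum amyloid family known for production outside the liver, in macrophages, adipocytes and epithelia, and it can act on Toll-like receptors. Complement is a cascade of plasma proteases in which C4 carries the classical and lectin pathways to C3, the component on which all pathways meet. Serpinb1a encodes an intracellular serpin that blocks neutrophil elastase, proteinase 3 and cathepsin G.

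Saa3 was higher with LPS on all 4 arrays, with larger ratios at 24 h; its 4 h sign turned under another centring, given further on. Its log2 ratio was 3.23 with LPS in Cy5 and 1.95 with LPS in Cy3 at 24 h, against 1.16 and 1.42 at 4 h. With all spots averaged, the arrays of the 2 times did not overlap, and both 24 h arrays lay above both 4 h arrays. With spots at a ratio of exactly 1 taken as not measured, they did overlap. The 4 h array with LPS in Cy5 then read 2.30, above the 24 h array with LPS in Cy3 at 1.96. The mean was 2.59 ± 0.91 at 24 h (SD, n = 2 arrays), or 6.02-fold, and 1.29 ± 0.19 at 4 h (SD, n = 2 arrays), or 2.45-fold. Among the 11138 genes, Saa3 stood 13th from the top at 24 h and 927th at 4 h. The dye part, by which a reading with LPS in Cy5 lay above the mean, was 0.64 at 24 h and -0.13 at 4 h.

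The oligonucleotides of Saa3 gave the same sign on every array but one. The oligonucleotide designed to the older GenBank record averaged 3.48 and 2.48 at 24 h, against 2.32 and 1.16 at 4 h, with LPS in Cy5 given first. The oligonucleotide designed to the RefSeq transcript averaged 2.99 and 1.41 at 24 h, against 0 and 1.68 at 4 h. Its arrays of the 2 times thus overlapped, while those of the GenBank oligonucleotide did not. Spots of the RefSeq oligonucleotide on the 4 h array with LPS in Cy5 were both at a ratio of exactly 1. There the other oligonucleotide read 2.28 and 2.36. A ratio of exactly 1 stood on 5307 of 32448 spots of that array, and why was not given in the sources used here. With such spots taken as not measured, the 4 h mean of Saa3 was 1.85 in place of 1.29, the 24 h mean was 2.60, and the 24 h and 4 h means lay 0.75 apart.

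Single spots of Saa3 at 24 h spread widely. The RefSeq oligonucleotide read 3.94 and 2.03 on its neighbouring spots with LPS in Cy5, and 1.51 and 1.31 with LPS in Cy3. The GenBank oligonucleotide read 2.97 and 3.99, and 2.17 and 2.80. All 8 of these readings were above 1. Over the 12172 pairs of neighbouring spots with 1 oligonucleotide, the SD of a single spot was 0.69 and 0.79 at 24 h, and 0.82 and 0.89 at 4 h.

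**Figure D1:**
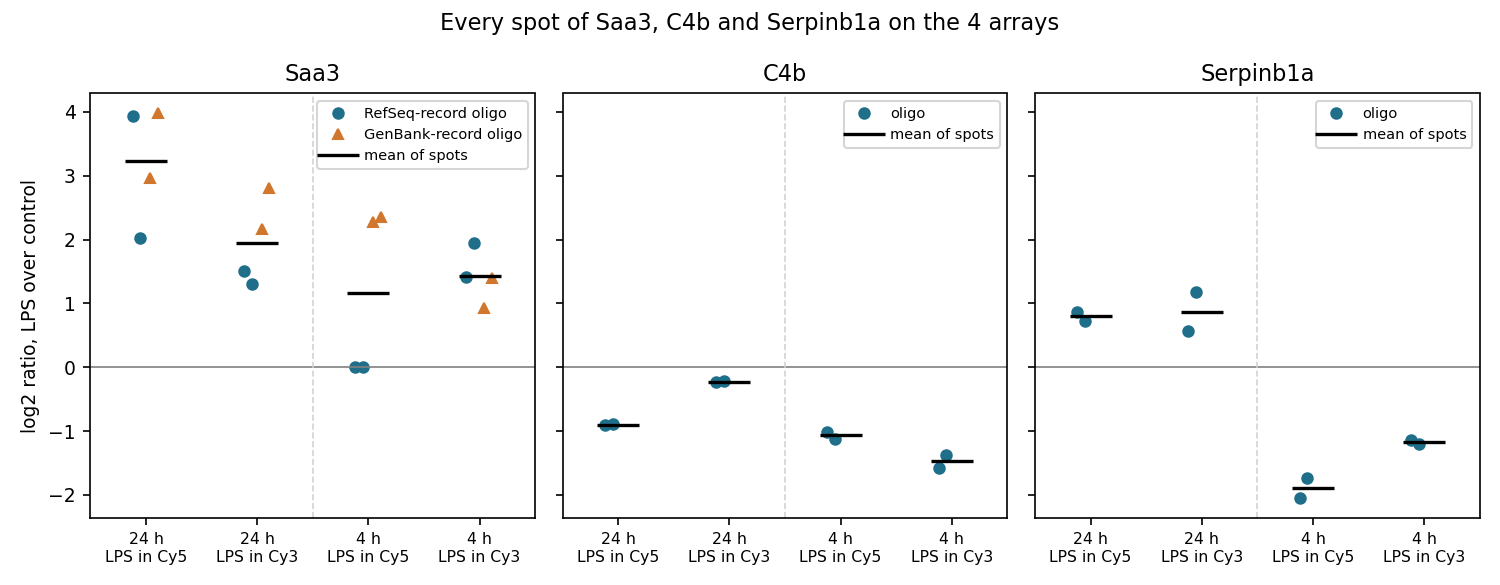
Log2 ratio of LPS over control for every spot of Saa3, C4b and Serpinb1a on the 24 h arrays (left of the dashed line) and the 4 h arrays. Symbols are spots, shaped by oligonucleotide, and bars are array means; all 24 h spots of Saa3 lie above 1, C4b lies below 0 on all 4 arrays, and Serpinb1a lies above 0 at 24 h and below 0 at 4 h.

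C4b encodes complement component 4, which is cleaved after antibody or lectin binding. It was lower with LPS on all 4 arrays, with log2 ratios of -0.90 and -0.23 at 24 h and of -1.07 and -1.48 at 4 h. The mean was -0.56 ± 0.48 at 24 h (SD, n = 2 arrays), a 1.48-fold lower level, and -1.27 ± 0.29 at 4 h (SD, n = 2 arrays), a 2.42-fold lower level. All 4 h values lay below all 24 h values. Neighbouring spots agreed closely, at -0.91 and -0.90 on the 24 h array with LPS in Cy5 and at -0.24 and -0.21 on the reversed one, and at -1.02 and -1.12, then -1.58 and -1.38, at 4 h. C4b stood 1052nd from the bottom at 24 h and 593rd at 4 h. The C4a gene, also called Slp, is a near-identical copy, so signal of either transcript cannot be assumed to be separate.

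Serpinb1a lay on opposite sides of 0 at the 2 times. Its log2 ratios were 0.80 and 0.87 at 24 h and -1.90 and -1.17 at 4 h. The mean was 0.84 ± 0.05 at 24 h (SD, n = 2 arrays), a 1.79-fold higher level, and -1.53 ± 0.52 at 4 h (SD, n = 2 arrays), a 2.90-fold lower level. On single spots the readings were 0.87 and 0.73, then 0.57 and 1.18, at 24 h, against -2.06 and -1.74, then -1.14 and -1.20, at 4 h. All 4 spot readings of each time lay on 1 side of 0. Serpinb1a was 592nd from the top at 24 h and 403rd from the bottom at 4 h. Its relatives Serpinb1b and Serpinb1c were not analysed here, and their transcripts may add signal to its spots.

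A gene was counted as higher or lower where the mean of the arrays was at least 2-fold and each array at least 1.5-fold the same way. By this rule Saa3 was the 1 of 3 measured genes higher at 24 h, where 1.68% of all genes were, and none was lower, where 0.799% were. At 4 h Saa3 was again the 1 higher gene, against 8.74% of all genes, and C4b and Serpinb1a were lower, against 5.77%. Just inside the rule lay C4b and Saa3 at 4 h, at -1.27 and 1.29, and just outside it Serpinb1a at 24 h, at 0.84. C4b at 24 h lay further outside, at -0.56 with arrays at -0.90 and -0.23. The genes were chosen on these ratios, so nothing is read from these counts.

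Between the times, the difference (24 h minus 4 h) was 2.37 for Serpinb1a, 1.30 for Saa3 and 0.71 for C4b. A difference of at least 1 with no overlap of the arrays was met upward by Saa3 and Serpinb1a, and by 8.23% of all genes; downward it was met by 9.99% of all genes and by none of the 3. With spots at a ratio of exactly 1 taken as not measured, Saa3 missed it, and with centring on abundant transcripts C4b met it, at 1.94. Leaving out the 24 h array with LPS in Cy5 gave Saa3 a difference of 0.66, and leaving out the 24 h array with LPS in Cy3 gave 1.94. With 1 RNA pair per time, the difference has no error between cultures and was not tested.

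**Figure D2:**
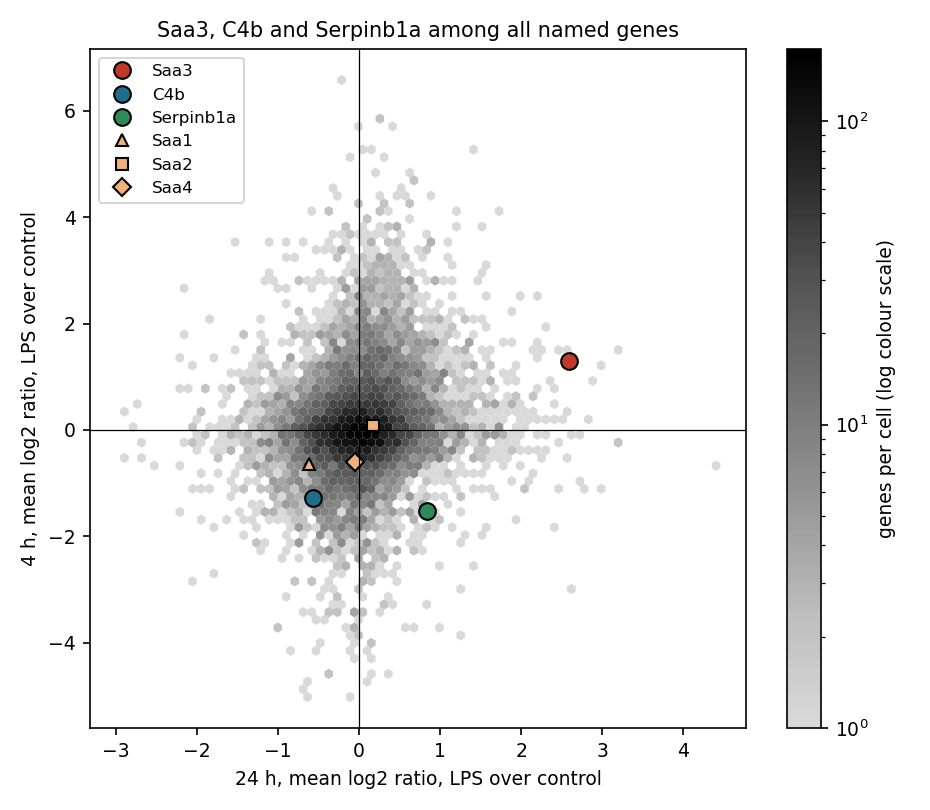
Mean log2 ratio of LPS over control at 24 h (x axis) and at 4 h (y axis) for all 11138 named genes as a density (log colour scale), with Saa3, C4b, Serpinb1a and the other serum amyloid genes marked. Saa3 lies to the right of most genes, at 2.59 and 1.29, and Saa1, Saa2 and Saa4 lie within the body of the cloud.

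Among the other serum amyloid genes, ratios like those of Saa3 were not seen. Saa1 and Saa2 encode the serum amyloids that the liver releases in the acute phase, and Saa4 the constitutive form. Saa1 lay at -0.61 ± 0.57 at 24 h and -0.64 ± 0.68 at 4 h (SD, n = 2 arrays), with readings of -1.01 and -0.21, against -1.12 and -0.16. Saa2 lay at 0.18 at 24 h and 0.08 at 4 h, and its 2 oligonucleotides at 0.11 and 0.24, against -0.01 and 0.17. Saa4 lay at -0.04 ± 0.38 at 24 h and -0.61 ± 0.36 at 4 h (SD, n = 2 arrays). None of the 3 passed the 2-fold rule at either time, and whether any of them differed from Saa3 was not tested. Transcripts of Saa1 and Saa2 are nearly identical, and a probe may not separate them.

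The promoter windows of the serum amyloid genes are shown because they set Saa3 beside its closest relatives on the arrays. Each covers 250 bases before the start of the gene to 50 after it, from RefSeq on GRCm38.p6, 5′ to 3′ on the gene's strand. Capitals mark matches on either strand to TTGCNNAA, a form of the C/EBP site, and to GGG, any 5 bases and CC, a loose form of the NF-kB site; where matches overlap, the capitals run on. Saa3 lies at chr7:46715627-46715926 on the minus strand, Saa1 at chr7:46742931-46743230 on the minus strand and Saa2 at chr7:46751583-46751882 on the plus strand.
Saa3: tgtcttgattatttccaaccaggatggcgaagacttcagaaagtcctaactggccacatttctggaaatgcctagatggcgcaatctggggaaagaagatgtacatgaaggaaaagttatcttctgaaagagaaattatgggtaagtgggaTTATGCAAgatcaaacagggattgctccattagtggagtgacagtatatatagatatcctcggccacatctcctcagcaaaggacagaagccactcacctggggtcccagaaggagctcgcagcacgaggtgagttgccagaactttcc
Saa1: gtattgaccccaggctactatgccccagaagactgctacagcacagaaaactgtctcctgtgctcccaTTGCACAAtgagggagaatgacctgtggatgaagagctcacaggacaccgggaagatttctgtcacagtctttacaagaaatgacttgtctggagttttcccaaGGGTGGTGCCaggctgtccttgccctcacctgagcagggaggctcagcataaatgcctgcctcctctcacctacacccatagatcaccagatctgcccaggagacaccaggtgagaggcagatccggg
Saa2: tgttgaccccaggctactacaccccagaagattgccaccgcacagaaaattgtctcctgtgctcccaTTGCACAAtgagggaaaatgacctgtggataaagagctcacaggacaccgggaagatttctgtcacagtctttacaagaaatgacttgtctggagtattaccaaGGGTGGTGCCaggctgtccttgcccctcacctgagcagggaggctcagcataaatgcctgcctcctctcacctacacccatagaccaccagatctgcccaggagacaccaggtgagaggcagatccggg

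The window of Saa3 held 1 C/EBP match, TTATGCAA, which begins 99 bases before the start. Saa1 and Saa2 held TTGCACAA, beginning 182 and 183 bases before it, and the NF-kB match GGGTGGTGCC, beginning 78 and 79 bases before it. No match to the NF-kB letters was found in the window of Saa3, and none to TTCNNNGAA, a form of the STAT site, in any of the 3. Of all 32851 windows of this length, 10.8% held the C/EBP letters, 50.8% the NF-kB letters and 8.30% the STAT letters on either strand. The windows of Saa1 and Saa2 were identical at 95.4% of aligned positions, and those of Saa3 and Saa1 at 50.9%. These matches describe the sequence, and binding was not measured. Windows of C4b and Serpinb1a were not used here.

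The neighbours of these genes in the network were read from 9 lists: complement components, regulators and receptors, acute phase proteins, clade B serpins, the proteases such serpins inhibit, secreted serpins, receptors of serum amyloids, and inducers of acute phase genes. Without the 4 genes above, 139 of 193 listed genes were measured. At 24 h 4 were higher and 0 lower, or 2.88% and 0%, against 1.68% and 0.799% of all genes. At 4 h 10 were higher and 7 lower, or 7.19% and 5.04%, against 8.74% and 5.77% of all genes. The counts of single lists below stand beside these same shares of all genes and were not tested against them. The median of the 139 was 0.03 at 24 h and -0.05 at 4 h, where that of all genes was 0.02 and -0.00. Over both times together, limma's test on the 2 pair means called 0 of the 139 after Benjamini-Hochberg adjustment at 0.05, and 0% of all 11138 genes. Leaving out the 24 h array with LPS in Cy5 gave 15 higher at 24 h, and leaving out the one with LPS in Cy3 gave 6 higher and 10 lower; leaving out the 4 h array with LPS in Cy3 gave 18 higher at 4 h. At an unadjusted p under 0.05 limma had 9 of the 139 and 513 of all genes. On the 4 arrays taken as independent, limma called 0 as well, with 12 and 1245 at an unadjusted p under 0.05.

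**Figure D3:**
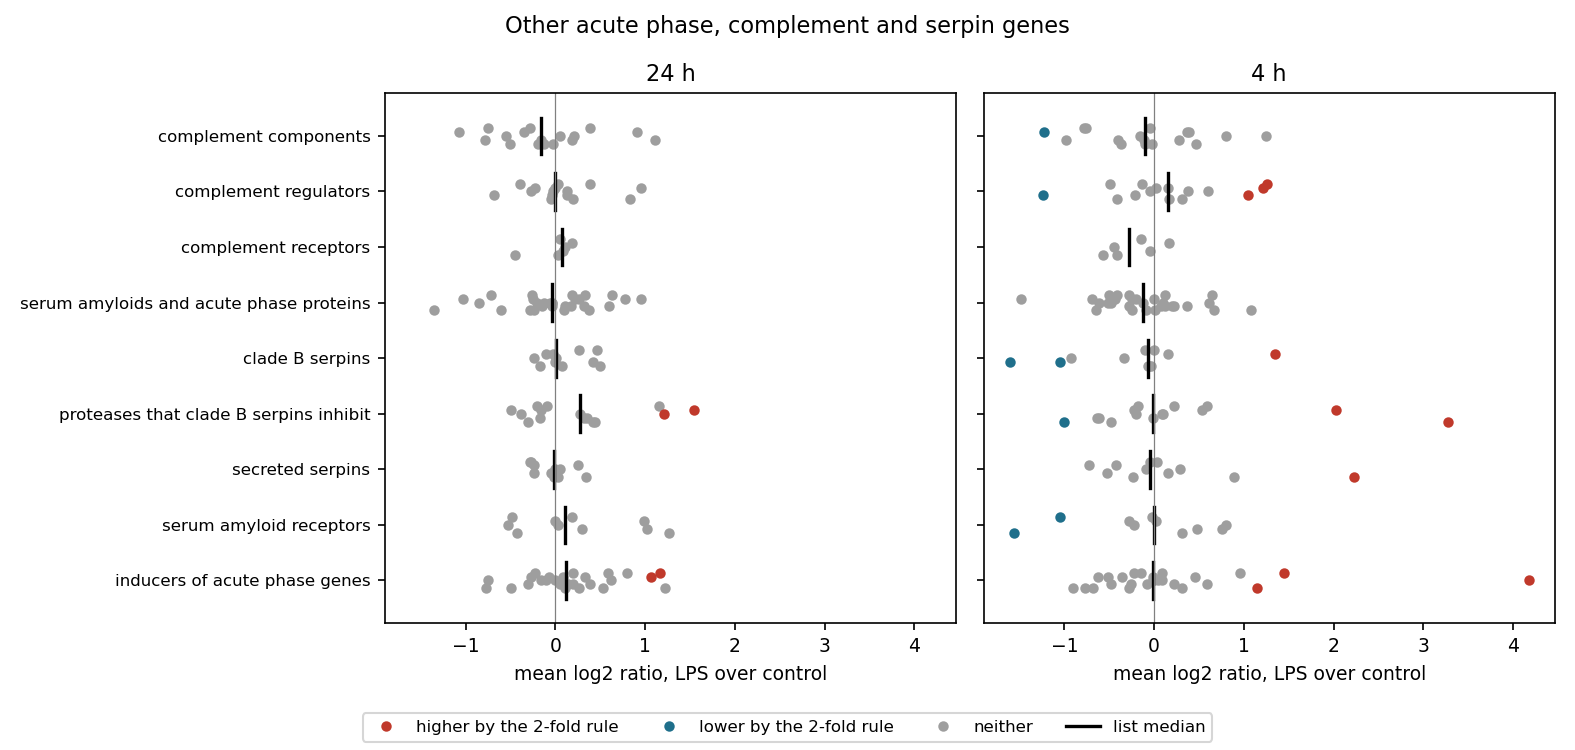
Mean log2 ratio of LPS over control at 24 h (left) and 4 h (right) for the measured genes of the 9 lists, without Saa3, C4b and Serpinb1a. Points are genes, red and blue where higher or lower by the 2-fold rule, and black bars are list medians, which lie between -0.16 and 0.27 at 24 h and between -0.28 and 0.16 at 4 h.

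Complement components around C4b mostly lay near 0. Of 17 measured, 0 passed the rule at 24 h, and at 4 h only Mbl1, mannose-binding lectin A, which starts the lectin pathway, was lower. Mbl1 lay at -1.08 ± 0.86 at 24 h and -1.23 ± 0.44 at 4 h (SD, n = 2 arrays), below 0 on all 4 arrays. Masp1, a protease of the same pathway, lay at -0.16 ± 0.37 at 24 h and -0.98 ± 0.21 at 4 h. Other genes of that pathway differed in sign at 4 h. Mbl2 lay at -0.75 ± 0.20 at 24 h and -0.78 ± 0.13 at 4 h, and Masp2 at -0.55 ± 0.32 and 0.80 ± 0.38. Subunits of C1q each had 1 array far from the other: C1qb at -0.19 and 2.41 at 24 h, and C1qc at 2.46 and 0.04 at 4 h. Cfb, factor B of the alternative pathway, lay at 0.38 at 24 h and -0.76 at 4 h. The list's medians were -0.16 and -0.10.

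Of 15 measured complement regulators, 0 passed the rule at 24 h, and at 4 h 3 were higher and 1 lower. The higher genes were C1qbp, which encodes a mitochondrial protein that can bind C1q, at 1.26 ± 0.78, Clu, the secreted chaperone and terminal pathway inhibitor clusterin, at 1.21 ± 0.36, and Cpn2, a subunit of the carboxypeptidase that inactivates complement fragments, at 1.05 ± 0.20 (SD, n = 2 arrays); with centring on abundant transcripts all 3 turned, to -0.12, -0.17 and -0.34, and quantile normalization left each under the rule (0.95, 0.94 and 0.83), as one spread for all arrays did Cpn2 (0.96). Clu was above 0 on all 4 arrays, at 1.32 and 0.58 at 24 h and at 1.46 and 0.96 at 4 h. Cpn2 lay below 0 at 24 h, at -0.69 ± 0.01. Cr1l, or Crry, the membrane regulator that protects mouse cells from C3 and C4 deposition, was the lower gene. It lay at 0.13 ± 0.33 at 24 h and -1.24 ± 0.59 at 4 h. With ratios of exactly 1 taken as not measured, its 4 h mean was -1.66, from arrays at -1.65 and -1.67. None of the 6 measured receptors passed the rule; C3ar1, the receptor of the C3a fragment, lay at 0.03 and -0.57, Cr2 at 0.11 and -0.44, and Cd93 at -0.45 and -0.42, with 24 h given first. Of the other regulators, Cpn1 lay at 0.83 and 0.31, its 24 h mean coming from arrays of opposite sign at -0.67 and 2.33. Vtn lay at 0.03 and -0.49. Cd55, which speeds decay of the C3 convertases, lay at 0.13 and 0.60. Its 3 oligonucleotides lay between -0.32 and 0.45 at 24 h and between -0.04 and 1.07 at 4 h.

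Of the 29 genes measured besides Saa3 from the list of serum amyloids and acute phase proteins, 0 passed the rule at either time. Itih2, a hyaluronan-linked inhibitor chain, lay at -1.03 ± 1.45 at 24 h and -1.48 ± 1.78 at 4 h. Its arrays lay apart by dye: 0.00 and -0.23 with LPS in Cy5, against -2.06 and -2.74 with LPS in Cy3. The 0.00, at 24 h, is a ratio of exactly 1, which may stand for spots not measured. Serpina1b, an alpha-1-antitrypsin, lay at -1.36 ± 1.44 and 1.08 ± 2.04, and Apcs, serum amyloid P, at 0.95 ± 1.44 and -0.43 ± 0.59. These spreads were as large as the means or larger. Lcn2, the iron-scavenging lipocalin, lay at 0.37 and 0.01. The list's medians were -0.04 at 24 h and -0.13 at 4 h.

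Among the relatives of Serpinb1a, 0 of 11 clade B serpins passed the rule at 24 h, and at 4 h 1 was higher and 2 were lower. Serpinb9b lay at 0.42 ± 0.60 at 24 h and -1.61 ± 0.18 at 4 h, and Serpinb3a at -0.00 ± 0.19 and -1.05 ± 0.51; Serpinb3a missed the rule under quantile normalization (-0.89) and with one spread for all arrays (-0.93). Serpinb6a, an intracellular inhibitor of trypsin-like proteases and cathepsin G, lay at -0.10 ± 0.29 at 24 h and was higher at 4 h, at 1.35 ± 0.41, but at -0.033 with centring on abundant transcripts. Serpinb9, the inhibitor of granzyme B, lay at 0.50 ± 0.31 and -0.07 ± 0.28, Serpinb5 at 0.00 and -0.92, and Serpinb7 at 0.47 and, with every 4 h spot at a ratio of 1, at -0.00. Of 11 secreted serpins, 1 was higher, Serpina12, the adipokine vaspin, at 0.03 ± 0.71 at 24 h and 2.23 ± 0.75 at 4 h; with centring on abundant transcripts that call was lost, at 0.84 with arrays at -0.18 and 1.86. Serpinh1, the collagen chaperone Hsp47, lay at 0.34 and 0.89, Serpinf2, antiplasmin, at -0.25 and -0.73, and Serpini1, neuroserpin, at -0.24 and -0.52.

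Of the 15 proteases, 2 were higher at 24 h, both inflammatory caspase genes, and at 4 h 2 were higher and 1 lower. Casp4, which in mouse encodes the cytosolic LPS sensor caspase-11, was higher at both times, at 1.55 ± 0.97 at 24 h and 2.03 ± 1.06 at 4 h, and Casp1 at 24 h, at 1.21 ± 0.07 against 0.09 ± 0.13 at 4 h (SD, n = 2 arrays). With centring on abundant transcripts the 4 h call of Casp4 was lost, at 0.65 with arrays at -0.59 and 1.89. Human SERPINB1 is known to restrain such caspases. Casp8 lay at 1.15 ± 0.81 and 0.59 ± 0.26. Ctsl, the lysosomal protease cathepsin L, lay at 0.42 ± 0.45 at 24 h and was higher at 4 h, at 3.28 ± 2.03 with arrays at 4.71 and 1.84. Elane, neutrophil elastase, lay at 0.44 ± 0.50 and was lower at 4 h, at -1.001 ± 0.30, but at -0.94 under quantile normalization and -0.92 with one spread for all arrays. Ctss lay at -0.17 and -0.63 and Gzmm at 0.32 and -0.62.

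The inducers of acute phase genes included the C/EBP factors, which bind sites like those marked in the windows of Saa3, Saa1 and Saa2. Whether they act on these genes was not tested. Of 26 measured inducers, 2 were higher at 24 h and 3 at 4 h, against 1.68% and 8.74% of all genes. With 0 lower at either time, the shares of all genes were 0.799% and 5.77%. Cebpb was higher at both, at 1.11 and 1.22 at 24 h (mean 1.16 ± 0.08) and 0.66 and 2.25 at 4 h (mean 1.45 ± 1.13). Its 4 h call was lost under quantile normalization (1.20) and with centring on abundant transcripts (0.07, with arrays at -1.22 and 1.35). Its oligonucleotides lay at 1.76 and 0.57 at 24 h and at 1.74 and 1.16 at 4 h. The 4 h mean of the first comes from arrays of opposite sign, at -0.18 and 3.66, and that of the second from arrays at 1.49 and 0.84. Cebpa was higher at 24 h, at 1.06 ± 0.16 against -0.01 ± 0.04 at 4 h, but missed the rule with centring on abundant transcripts (0.91). Cebpd, at -0.77 ± 0.43 and -0.91 ± 0.54, lay below 0 on all 4 arrays.

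Socs3, the feedback inhibitor that interleukin 6 induces through Stat3, had the highest 4 h mean of the 139 genes. It lay at 5.13 and 3.22 on the 4 h arrays (mean 4.18 ± 1.35), against -0.69 and 0.67 on the 24 h arrays (-0.01 ± 0.97). Nfkbiz, a nuclear NF-kB cofactor, lay at 0.10 ± 0.48 at 24 h and was higher at 4 h, at 1.15 ± 0.19, but at -0.24 with centring on abundant transcripts and 0.91 under quantile normalization, past the rule in neither. Nfkbia, the NF-kB inhibitor, lay at 0.20 and 0.96, and Lifr, a cytokine receptor, at 1.22 ± 1.69 and -0.28 ± 0.29. The cytokine genes Il6, Il1b and Tnf lay at -0.50, -0.23 and -0.31 at 24 h and at -0.68, -0.22 and -0.08 at 4 h. At 24 h the arrays of each had opposite signs: -1.30 and 0.30 for Il6, -0.77 and 0.31 for Il1b, and -1.05 and 0.43 for Tnf. At 4 h those of Il1b (-0.73 and 0.29) and Tnf (-0.39 and 0.23) did as well, while Il6 lay at -0.77 and -0.59.

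Of 10 measured receptors and adaptors for serum amyloids, 0 passed the rule at 24 h and 2 were lower at 4 h. These were Fpr2, a formyl peptide receptor that binds serum amyloid A, at -0.43 ± 0.06 at 24 h and -1.56 ± 0.63 at 4 h, and the adaptor Myd88, at 0.18 ± 0.01 and -1.05 ± 0.28; Myd88 missed the rule under quantile normalization (-0.92) and with one spread for all arrays (-0.94). Tlr2 lay at 2.18 and 0.35 at 24 h and at 0.30 and 0.31 at 4 h. Tlr4, the LPS receptor, lay at 1.02 ± 0.79 and 0.76 ± 1.67, and Ager at 0.98 ± 0.99 and -0.27 ± 0.01. The oligonucleotides of Tlr4 differed, at 0.23 and 1.81 at 24 h and at 0.15 and 1.37 at 4 h, the last from arrays at 3.24 and -0.51.

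**Figure D4:**
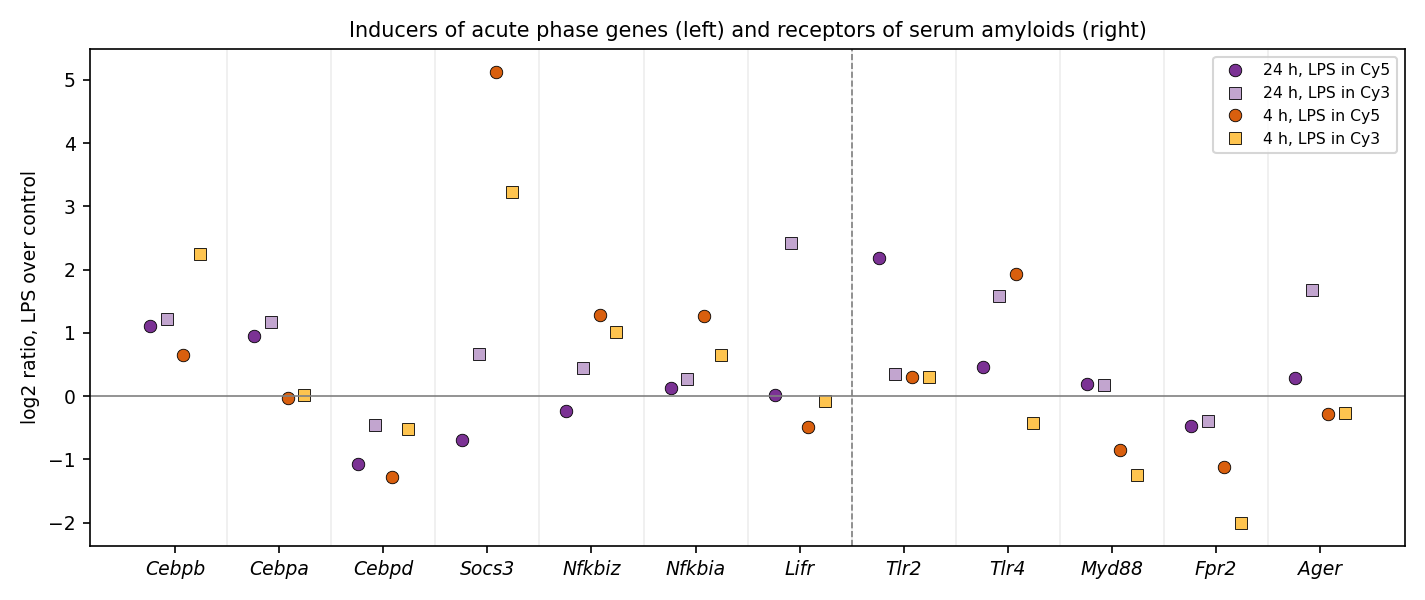
Log2 ratio of LPS over control on each array for genes named among the inducers of acute phase genes (left of the dashed line) and the receptors of serum amyloids (right). Each gene has its 24 h arrays before its 4 h arrays, circles with LPS in Cy5 and squares with LPS in Cy3; Cebpb lies above 0 on all 4, and Socs3 lies above 3 on both 4 h arrays.

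The genes with the most similar values were found by the distance over the 4 arrays, among about 8139 genes with no ratio of exactly 1. Saa3 itself was kept, though its 4 h value with LPS in Cy5, 1.16, averages in spots at a ratio of exactly 1. With those taken as not measured that value was 2.30, and the distances, which rest on 1.16, were not computed again. Nearest to Saa3 was Il33, a nuclear cytokine released from damaged cells, at a distance of 0.45 log2 units, with 3.18 and 1.73 at 24 h and 1.54 and 1.49 at 4 h. Rsad2, the antiviral enzyme viperin, followed at 0.60, the GTPase gene Ifi47 at 0.82, the guanylate-binding protein gene Gbp2 at 0.92 and the metalloproteinase inhibitor gene Timp1 at 1.11. Nearest to C4b were Pkp3 at 0.14, Ube4b at 0.28, Pigq at 0.29, Usp21 at 0.35 and Kcnd1 at 0.36. Nearest to Serpinb1a was Uggt1, a folding sensor of the endoplasmic reticulum, at 0.16, with 0.70 and 0.94 at 24 h and -1.98 and -1.11 at 4 h; then came 1700037C18Rik at 0.61, Cd22 at 0.69, Exosc6 at 0.76 and Msgn1 at 0.77. Distances are smaller where more genes lie, and these genes are named for likeness of values over 4 arrays alone.

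A list of transcripts known to be abundant in most cells, which leaves out those of translation, read high at 4 h. Of its 47 measured members, 2 were higher and 0 lower at 24 h, with a median of 0.17, against 1.68% and 0.799% of all genes. At 4 h 26 were higher and 2 lower, with a median of 1.75, against 8.74% and 5.77% of all genes. Relative to these transcripts, Saa3 lay at 2.44 at 24 h and -0.094 at 4 h, so its sign at 4 h turned, with arrays at -0.71 and 0.53. C4b lay at -0.72 and -2.66, a difference between the times of 1.94 that passes the rule for it, and Serpinb1a at 0.68 and -2.92. That setting moved the median of all genes to -0.13 at 24 h and -1.39 at 4 h, and the place of each gene among all genes on an array is the same under it. At 4 h, 2 of the 10 higher list genes, Socs3 (2.79) and Ctsl (1.89), passed the rule in that setting. Abundance was not measured here, and its part in the 4 h ratios was not tested.

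**Figure D5:**
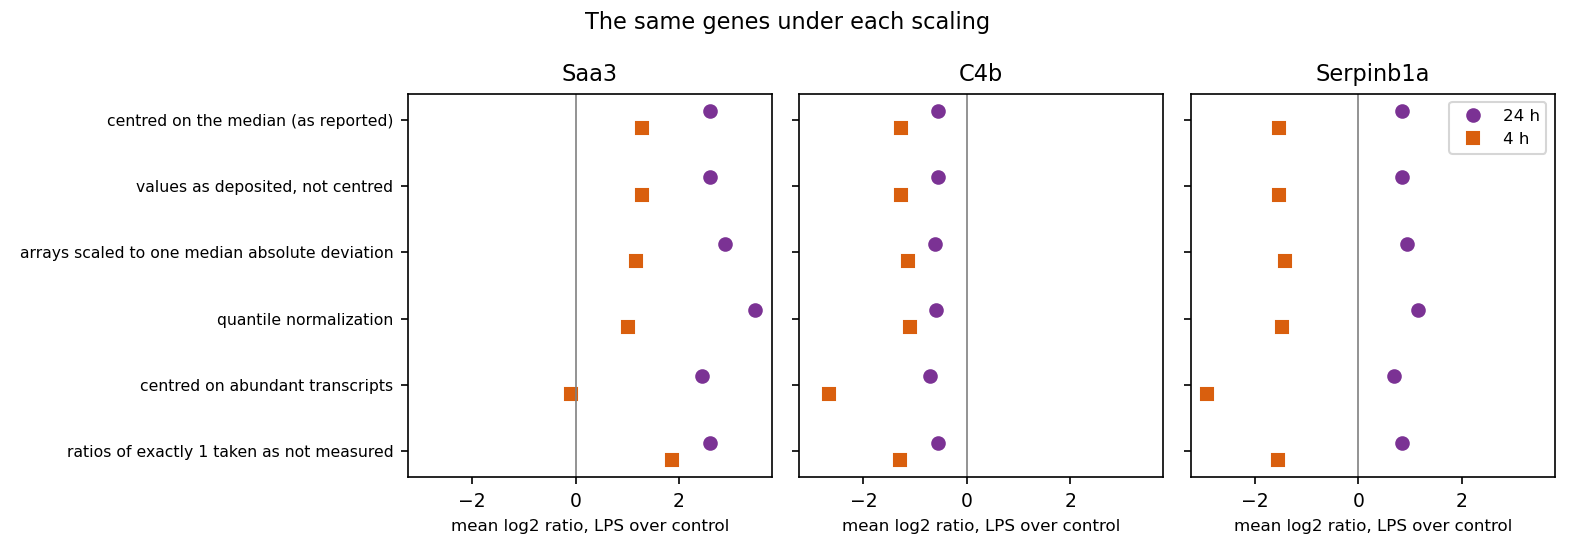
Mean log2 ratio of LPS over control for Saa3, C4b and Serpinb1a at 24 h (circles) and 4 h (squares) under 6 ways of scaling the arrays. The 24 h values keep their side of 0 in each, and the 4 h value of Saa3 turns from 1.29 to -0.094 with centring on abundant transcripts.

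Markers of cells that can make these proteins were set beside them. For comparison, 1.68% of all genes were higher and 0.799% lower at 24 h, and 8.74% and 5.77% at 4 h. Of 14 macrophage and leukocyte markers, Coro1a was higher at 24 h (1.05 ± 0.15) and 0 passed the rule at 4 h, with medians of 0.15 and -0.13. None of 8 hepatocyte markers passed it (medians -0.23 and -0.37). Of 8 adipocyte markers Retn was lower at 4 h (-1.42), and of 9 neutrophil markers Mpo was higher at 4 h (1.26, with oligonucleotides of opposite sign) while Cxcr2 (-3.16) and Elane were lower. Of 9 epithelial markers Cldn3 was lower at 4 h (-1.66). Of 12 mural and fibroblast markers 1 was higher at 24 h, Pdgfra (1.14), and 6 were higher and 1 lower at 4 h, with medians of -0.07 and 0.62. Those higher at 4 h were Col3a1 (3.05), Pdgfra (1.92), S100a4 (1.75), Dcn (1.70), Acta2 (1.48) and Col1a1 (1.20), and Lum (-1.40) was lower. Marker counts are given with median centring alone. Centring on abundant transcripts, which moved the 4 h median of all genes to -1.39, would lower all these 4 h values. Of 14 endothelial markers 0 passed the rule at 24 h and Cdh5 (-3.47 ± 2.12) and Plvap (-1.43 ± 0.69) were lower at 4 h; the oligonucleotides of Cdh5 lay at 0.27 and -7.21. The part of these markers in the ratios of Saa3, C4b and Serpinb1a was not tested, and ratios do not show whether a marker is expressed.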

How the data were processed

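Values deposited by the authors are log2 ratios of the dyes for 32448 spots on 4 arrays, judged from their signs and medians of 0. How they were scanned, background-corrected and normalized is not given in the sources used here; without intensities, the number of arrays limits the precision. Spots were named from the platform annotation; 24344 had 1 symbol, 98 several and 8006 none, and 98.9% of the first had an Entrez ID in the GRCm38.p6 gene table, which updated 0 symbols. Arrays were centred on their medians, those with LPS in Cy3 turned in sign, and the spots of a gene were averaged. The 2-fold rule and the differences were computed with pandas 2.3.3, and the shared fit with limma 3.58.1 (lmFit, then eBayes, with an intercept fitted to the means of the 2 pairs, leaving 1 residual degree of freedom; Benjamini-Hochberg over all genes). The rule and the fit were run on simulated data to check the code. The shift simulated for the fit was larger than the mean of any list gene over both times. Whether the fit could call changes of the size seen in list genes was thus not tested.

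The genes and lists were chosen with earlier results of these data known. Named genes are those of the lists past the rule, up to 3 others per list by size, and the 5 nearest to each gene by Euclidean distance. Saa1, Saa2, Saa4, Mbl2, Masp2, Cfb, Lcn2, Il6, Il1b, Tnf and the markers named singly were named with their values already seen. The alternatives tried were no centring, one spread for all arrays, quantile normalization, centring on abundant transcripts, ratios of exactly 1 as not measured, single oligonucleotides, the mean alone, leaving out each array, and limma on the 4 arrays with and without a dye term.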

Additional observations from a re-analysis of the deposited data

Results flagged for a closer look

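Several genes had both 24 h arrays on one side of 0 and both 4 h arrays on the other. The difference between the times was not tested for any of them. Over all genes, 1540 of 11138 (13.8%) had this pattern, and 8 of the 49 genes named as measured members or list genes (16.3%).

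Serpinb1a was above 0 at 24 h and below 0 at 4 h, with a difference (24 h minus 4 h) of 2.37 log2 units. The same direction was seen for Lifr (1.4997, with 24 h arrays at 0.02 and 2.42), Elane (1.44), Ager (1.26), Myd88 (1.24), Gzmm (0.94) and Vtn (0.52, with 24 h arrays at 0.01 and 0.06). Cpn2 ran the other way, below 0 at 24 h and above 0 at 4 h, with a difference of -1.73.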

How the results depend on the processing

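The deposited values, not centred, gave the same values for Saa3, C4b and Serpinb1a. With centring on abundant transcripts, Saa3 at 4 h turned to -0.094, C4b lay at -2.66 and Serpinb1a at 0.68 at 24 h and -2.92 at 4 h; the differences (24 h minus 4 h) were 2.53 for Saa3, 1.94 for C4b and 3.60 for Serpinb1a. C1qbp (-0.12), Clu (-0.17), Cpn2 (-0.34), Nfkbiz (-0.24) and Serpinb6a (-0.033) also turned in sign at 4 h there. Quantile normalization gave Saa3 1.01 at 4 h and a difference of 2.46, and Serpinb1a 1.15 at 24 h, past the rule. One spread for all arrays gave Serpinb1a 0.94 at 24 h. Saa3 at 4 h was 1.85 without ratios of exactly 1, 0.84 by its RefSeq oligonucleotide and 1.74 by the other. The causes were not tested.

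The list genes higher at 24 h numbered 4, with 8 under quantile normalization and 9 by the mean alone, and the 0 lower became 3 by the mean alone. At 4 h the 10 higher became 5 under quantile normalization and 2 with centring on abundant transcripts, and the 7 lower became 4 under one spread, 4 under quantile normalization and 104 with that centring. Over all genes the 187 higher at 24 h became 411 under quantile normalization, 118 with that centring and 388 by the mean alone. The 89 lower at 24 h became 144 under one spread, 148 under quantile normalization, 167 with that centring and 280 by the mean alone. The 973 higher and 643 lower at 4 h became 205 and 7224 with that centring. For the other genes named from the lists, 381 of 459 values under these settings stayed within the SD of the arrays. Of the rest, 73 moved by that SD or more, and 5, of genes past the rule, turned in sign. The uncentred values could not differ, and the SD is wide where the arrays disagree, so this share does not measure stability.

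With 2 arrays per time, leaving out 1 gives the other array's own value. The list genes higher at 24 h then numbered 6 to 15 and those lower 1 to 10, and at 4 h 11 to 18 and 7 to 10. Over all genes there were 502 to 771 higher and 310 to 818 lower at 24 h, and 1376 to 1476 higher and 996 to 1007 lower at 4 h. The higher count at 24 h came without the array with LPS in Cy5, the higher count of lower genes without the one with LPS in Cy3. A single array has no demand on the other, so such counts are larger by construction.

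With a dye term, limma on the 4 arrays taken as independent called 0 list genes, with 12 at an unadjusted p under 0.05. Dye orientation is no replicate of a culture. Arrays of the same RNA pair count there as separate, so that p rests in part on technical spread. The shared fit on the pair means also called 0 at an adjusted threshold of 0.10 (9 unadjusted) and on leaving out each array, added after seeing the data (4 to 7 unadjusted).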
